A study of Mus musculus with 6 samples.

Results

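The broad peaks of V5-Dppa2 were the 332 of 3336 peaks (9.95%) in the deposited list that were 2200 bp wide or more. They were selected on width alone, so their widths are a description and support nothing else. Dppa2 carrying an N-terminal V5 tag was expressed from a pPyCAG-driven vector in CGR8 cells, a feeder-free line of mouse embryonic stem cells (ESCs) grown on gelatin with LIF, as stable clones under puromycin. How many clones were used was not given in the labels. The control was the parental CGR8 line, which has no V5 tag, precipitated with the same antibody against V5. There was 1 library of each, and the control entered here only through the peak calling. The series also holds 4 histone modification ChIP libraries from mouse ESCs, so that 5 of the 6 samples were not analysed here. A peak list holds no expression values, and the identity of the cells could therefore not be checked against marker genes.

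Dppa2 is a small nuclear protein with a SAP domain, a fold that binds DNA, and is found in the inner cell mass, in ESCs and in the early germ line. In ChIP-seq, DNA fragments crosslinked to a protein are precipitated and sequenced, and a peak is an interval in which the precipitate holds more reads than the control. Many mammalian promoters lie in CpG islands, stretches in which the dinucleotide CpG has escaped the loss that methylation causes elsewhere in the genome. Genes of developmental regulators are often covered by several or unusually long islands that reach into the gene body.

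The broad peaks held sequence of very different CpG content, and 5 of the widest are shown as examples. Of the 20 widest peaks, those with a protein-coding nearest gene and few repeated sequences were ordered by CpG ratio in 1000 bp at the midpoint. This ratio is the observed number of CpGs over that expected from the C and G content. The 3 richest and 2 poorest were taken after the values had been seen. Each line gives the 150 bp of the mm9 plus strand closest to the midpoint that touched no annotated UTR or noncoding exon, 5′ to 3′, with every CpG in capitals. The first 3 are the richest of these, with ratios of 1.07 at Irf2bp2, 0.761 at Tlx3 and 0.755 at Rab3a. Those of Tlx3 and Rab3a lie below 0.774, the median of the narrower peaks.
Irf2bp2, chr8:129117513-129117662: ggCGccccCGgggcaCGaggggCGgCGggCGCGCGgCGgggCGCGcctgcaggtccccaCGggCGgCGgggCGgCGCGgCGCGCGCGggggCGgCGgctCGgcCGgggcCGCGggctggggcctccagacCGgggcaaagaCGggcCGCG
Tlx3, chr11:33102240-33102389: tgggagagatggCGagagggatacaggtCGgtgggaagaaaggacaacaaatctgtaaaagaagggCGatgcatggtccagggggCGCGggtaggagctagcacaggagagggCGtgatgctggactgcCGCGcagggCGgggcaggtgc
Rab3a, chr8:73278768-73278917: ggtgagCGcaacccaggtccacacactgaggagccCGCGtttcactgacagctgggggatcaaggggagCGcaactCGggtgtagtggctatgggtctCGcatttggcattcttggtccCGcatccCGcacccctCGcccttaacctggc
Pnmt, chr11:98249594-98249743: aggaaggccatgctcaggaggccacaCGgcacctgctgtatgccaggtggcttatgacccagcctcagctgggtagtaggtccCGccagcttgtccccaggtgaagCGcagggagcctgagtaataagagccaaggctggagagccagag
D17H6S56E-3, chr17:35152914-35153063: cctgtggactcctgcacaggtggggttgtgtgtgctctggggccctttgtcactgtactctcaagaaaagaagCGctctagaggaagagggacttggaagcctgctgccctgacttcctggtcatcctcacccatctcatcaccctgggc
The stretch at Irf2bp2 lay between genes and held 31 CpGs, whereas those in introns of Tlx3 and Rab3a held 9 each. The stretch beyond the end of Pnmt held 3 CpGs, and the one across a coding exon and an intron of D17H6S56E-3 held 1. GC content differed less than CpG number, at 90% for Irf2bp2, 62% for Tlx3, 62.7% for Rab3a, 61.3% for Pnmt and 57.3% for D17H6S56E-3.

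All peaks of the list ranged from 360 to 9203 bp in width. The broad peaks had a median of 2465.5 bp (quartiles 2283 and 2889.75) and the 3004 narrower peaks a median of 1381 bp. The number of peaks fell smoothly across the threshold, with no gap that would set the broad peaks apart. Just inside it lay peaks including those at Hmgb2 (2200 bp), Arhgap21, Des, Igfbp3 and Gm14497 (2201 bp each), Disc1 (2202 bp), Gm13136 (2204 bp), and Kbtbd13 and 1110032F04Rik, 1 bp wider again. Just outside it lay those at Epb4.1l4b, 1 bp under the threshold, at Bmp8b (2198 bp), Gm17470 (2197 bp) and Trim47 (2196 bp), and at Arl15, 1 bp narrower than the last. The 466 peaks from 1800 bp up to the threshold, called the near-broad peaks, are therefore given beside the broad peaks as their closest neighbours in width.

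**Figure D1:**
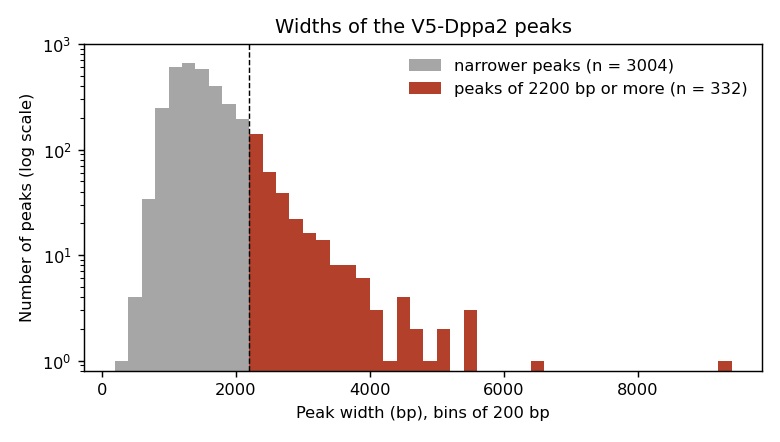
Number of V5-Dppa2 peaks (vertical axis, log scale) by width in bp (horizontal axis, bins of 200 bp), with the 332 peaks of 2200 bp or more in red, the 3004 narrower peaks in grey and the threshold as a dashed line. The counts decline through the threshold without a gap, and 1 peak of 9203 bp stands far to the right.

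The widest peak, 9203 bp at chr15:76279768-76288970, covered the start site (TSS) of Scx, which encodes scleraxis, a transcription factor of tendon, and that of a short transcript 71893 bp into Heatr7a, near the end of that 72778 bp gene. Its score was 244.96, close to the median of the list. The score is a rescaled p-value of the authors' peak caller for ChIP against control, −log10 multiplied by 10. The second widest, 6413 bp at chr8:11003759-11010171, lay over the TSSs of the noncoding RNA 9530052E02Rik and of Irs2, an adaptor of the insulin receptor, and scored 1637.79. A peak of 5468 bp at chr11:98246935-98252402 held all of Pnmt, the enzyme that makes adrenaline from noradrenaline, and scored 638.87. A peak of 5031 bp at chr11:33099800-33104830 held all of Tlx3, a homeobox gene of excitatory spinal neurons, and scored 427.37. The peak at Irf2bp2, a transcriptional corepressor, was 5005 bp wide with a score of 469.18. The others of the 20 widest measured 3979 to 5550 bp and included those at 8430427H17Rik, AC155932.1, Gm10807, Gm11611, Gm12623, Gm13205, Wnt9a, D17H6S56E-3 with Vars, Sox10, Tymp with Odf3b, Fcgr3, Rab3a, Comp and F630040L22Rik. Among these, Comp encodes a protein of cartilage matrix and Rab3a a GTPase of synaptic vesicles.

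Width and score had no rank correlation over the list (Spearman's rho −0.0018 over 3336 peaks) and little among the broad peaks (rho 0.0784 over 332), but score did vary with width. From the narrowest to the widest of 6 classes, bounded at 1000, 1400, 1800, 2200 and 3000 bp, the median score was 283, 222, 204.5, 248, 247 and 346, so that it was lowest in the middle. These points share 1 library and 1 control. The authors also kept only peaks with a minimum number of aligned reads, and how this limit shaped the narrow classes was not tested. The median score was 262 in the broad peaks (95% interval of the median 236 to 295) and 226 in the narrower ones (219 to 231). Scores of 1000 or more were found at 17 broad peaks (5.12%, exact interval 3.01 to 8.07) and 27 narrower peaks (0.899%, 0.593 to 1.31). The highest-scoring broad peaks lay at Nefm, a neurofilament subunit (2290, the second highest score of the list), at Mex3d, an RNA-binding protein (2247), at the Fc receptor gene Fcgr3 (2241), at 9530052E02Rik with Irs2 (1638) and at Plvap, a protein of endothelial diaphragms (1617). All intervals given here cover counting error only, and with 1 library no test of any difference was made, since peaks of 1 library are not replicates. Library depth is unknown from a peak list.

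The extent of the broad peaks beyond the TSS nearest to their midpoint follows largely from the width they were selected on and is given as a description. They reached a median of 1123.5 bp upstream (1054 to 1182) and 1450 bp downstream (1379 to 1540), against 556.5 bp and 802 bp in the narrower peaks. The midpoint lay downstream of that TSS in 223 broad peaks (67.2%, 61.8 to 72.2) and in 71.5% of the narrower peaks (69.8 to 73.1). A midpoint more than 1000 bp from any TSS was found in 30 broad peaks (9.04%) and 25 narrower ones (0.832%), which is also set by width, since a peak that covers its nearest TSS can have such a midpoint only if it is wide. The peak at Comp ran mostly into the gene, with its midpoint 1372 bp downstream of the TSS. At Sox10 the peak was centred on the start site, 1 bp away. A TSS lay inside 327 broad peaks (98.5%, 96.5 to 99.5), 96.2% of the narrower peaks (95.4 to 96.8) and 98.5% of the near-broad peaks (96.9 to 99.4). None lay inside the other 5 broad peaks, whose nearest TSSs were of Gm9969, 1700045I11Rik, Spon2, Slc35e4 and a pseudogene annotated under the name Abl1. These 5 are named here outside the rule for named genes.

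**Figure D2:**
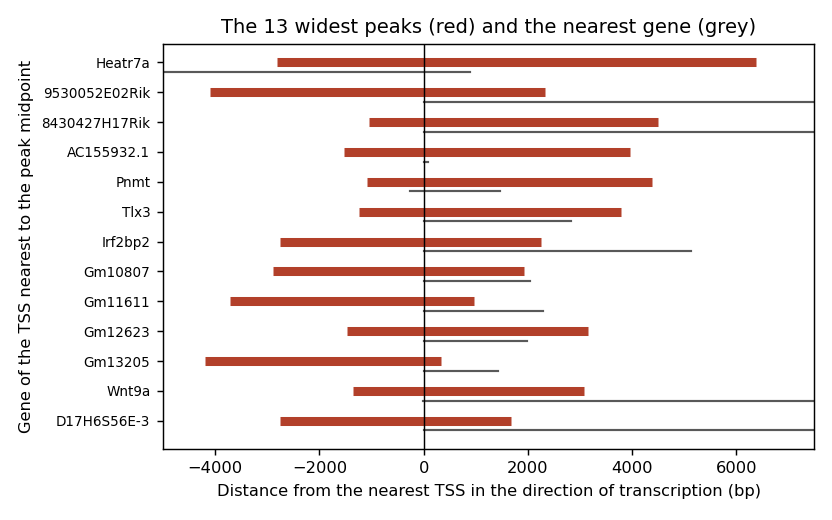
Extent of the 13 widest peaks (red bars) in bp from the nearest TSS (0, vertical line), in the direction of transcription, with the nearest gene's annotated span as a thin grey line, cut off at the edges of the plot. The peak of Heatr7a reaches furthest downstream (6386 bp), those of 9530052E02Rik and Gm13205 furthest upstream (4091 and 4197 bp), and the peaks of Pnmt and Tlx3 run past the end of the gene.

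Whether broad peaks span more start sites depended on how the start sites were counted. The TSSs of 2 or more genes lay inside 75 broad peaks (22.6%, 18.2 to 27.5), 421 narrower peaks (14.0%, 12.8 to 15.3) and 14.6% of the near-broad peaks (11.5 to 18.1). A wider interval covers more start sites by its width alone. Within a fixed 500 bp of the midpoint, 2 or more genes began in 9.04% of the broad peaks (6.18 to 12.6) and 11.6% of the narrower ones (10.5 to 12.8). Within 1000 bp the shares were 17.8% (13.8 to 22.3) and 15.6% (14.3 to 17.0), and within 2000 bp they were 25.0% (20.4 to 30.0) and 18.7% (17.4 to 20.2). The order of broad and narrower peaks was thus turned round at the shortest distance, and the intervals overlapped at 500 and 1000 bp.

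Protein-coding genes made up part of these counts. In 36 broad peaks (10.8%, 7.71 to 14.7) the TSSs of 2 or more protein-coding genes were covered, against 6.96% of the narrower peaks (6.07 to 7.93). In 31 of all broad peaks (9.34%) they lay on both strands, against 6.39% of the narrower peaks. Examples are Tymp, thymidine phosphorylase, with Odf3b, Rfng with Gps1, Chrd with Thpo, Obsl1 with Inha, and Zbtb1 with Zbtb25. TSSs more than 100 bp apart were also counted as separate clusters whether or not they belonged to 1 gene. There were 2 or more such clusters inside 40.4% of the broad peaks (35.04 to 45.9) and 32.1% of the narrower ones (30.5 to 33.8), but within 500 bp of the midpoint in 17.5% (13.5 to 22.0) and 26.4% (24.9 to 28.0).

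The longest island of a broad peak had a median length close to that in near-broad peaks. Islands took up less of a broad peak than of a narrower one, a share that depends on the selected width. CpG islands were taken as stretches of at least 200 bp with a GC content of at least 50% and a CpG ratio of at least 0.6, where the CpG ratio is the observed number of CpGs over that expected from the C and G content. The median length of island under a peak was 1645.5 bp in the broad peaks (1511 to 1773), 1044.5 bp in the narrower ones (1026 to 1060) and 1454 bp in the near-broad ones. This length and the number of islands rise with the width of the interval. The full length of the longest island touched, whether or not it ended inside the peak, had a median of 1299 bp in broad peaks (1190 to 1395), 1312.5 bp in near-broad peaks (1230 to 1397) and 1042 bp in narrower peaks (1020 to 1061). Islands took up a median of 63.7% of a broad peak (59.4 to 67.8), 74.6% of a near-broad one (70.6 to 78.1) and 79.8% of a narrower one (78.6 to 80.8). The width is the denominator of this share, so an island of a given length fills less of a wider peak. Separate islands, 2 or more, lay in 170 broad peaks (51.2%, 45.7 to 56.7), in 17.5% of the narrower peaks (16.1 to 18.9) and in 30.3% of the near-broad peaks (26.1 to 34.7). At Tlx3, islands covered 4717 bp of the 5031 bp peak. At Pnmt they covered 604 bp of 5468 bp.

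Around the midpoint, the CpG ratio of the broad peaks was slightly lower than that of the narrower ones. In a window of 1000 bp the median ratio was 0.728 (0.695 to 0.758) for broad peaks, 0.774 (0.765 to 0.781) for narrower peaks and 0.806 for near-broad peaks. Over the whole peak the medians were 0.621 (0.588 to 0.648) and 0.721 (0.713 to 0.731). Centred on the nearest TSS in place of the midpoint, they were 0.739 (0.704 to 0.779) and 0.769 (0.760 to 0.780), whose intervals overlap. In a 2000 bp window, which runs past the ends of most narrower peaks, the medians were 0.658 and 0.655. The density of CpGs per 100 bp was lower in broad than in narrower peaks in the 1000 bp window (7.4 against 8.1) and over the whole peak (5.67 against 6.91), but higher in the 2000 bp window (6.4 against 5.25, with 6.45 in near-broad peaks).

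CpG content did not follow width in 1 direction. The median ratio in the 1000 bp window was 0.646 for peaks under 1000 bp, 0.758 from 1000 up to 1400 bp, 0.815 from 1400 up to 1800 bp and 0.806 for the near-broad peaks, and then 0.743 in the 262 peaks from 2200 up to 3000 bp and 0.559 in the 70 peaks of 3000 bp or more. Spearman's rho of width with this ratio was 0.117 over all peaks and −0.208 over the broad ones. The share of a peak in islands, which has the width as its denominator, was 81.6% from 1400 up to 1800 bp. It was 66.9% from 2200 up to 3000 bp and 49.4% at 3000 bp or more.

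**Figure D3:**
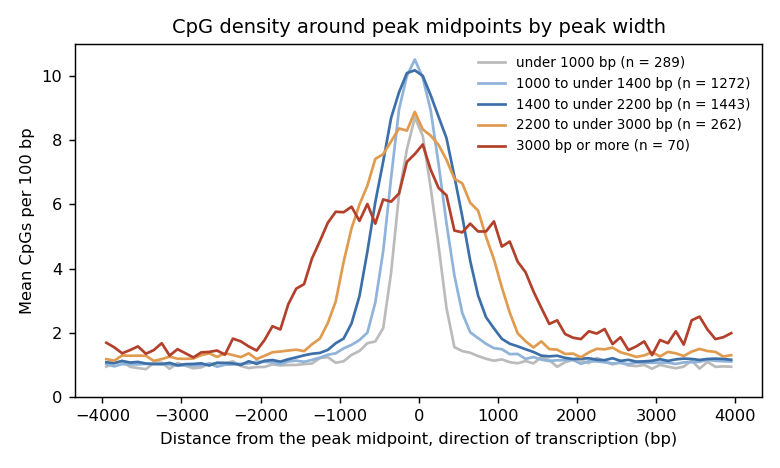
Mean number of CpGs per 100 bp (vertical axis) by distance in bp from the peak midpoint (horizontal axis, direction of transcription of the nearest gene) for 5 width classes. The narrower classes form 1 sharp summit, while the 70 peaks of 3000 bp or more have a lower centre and shoulders of about 5 CpGs per 100 bp at 1000 bp on either side.

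**Figure D4:**
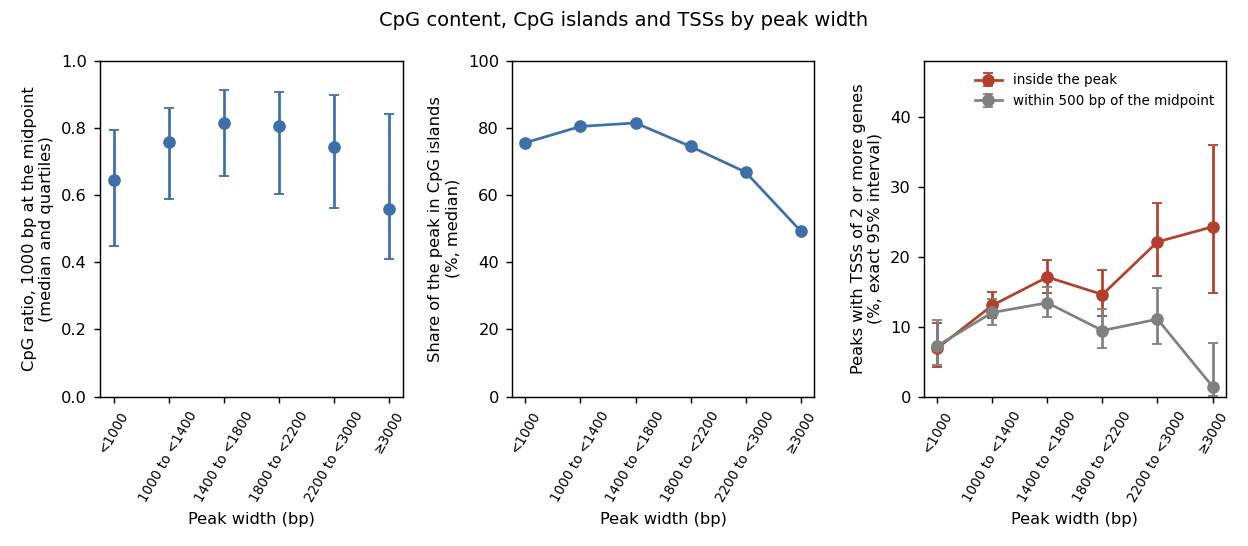
CpG ratio in 1000 bp at the midpoint (left, median and quartiles), share of the peak in CpG islands (middle, median in %) and share of peaks with the TSSs of 2 or more genes (right, % with exact 95% intervals, red inside the peak and grey within 500 bp of the midpoint) for 6 classes of width in bp. The ratio and the island share are lower in the widest classes than from 1400 up to 1800 bp, and the red and grey shares part as peaks widen.

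The broad peaks could be divided by whether the midpoint lay in an island, which it did in 260 (78.3%, 73.5 to 82.6), against 87.7% of the narrower peaks (86.5 to 88.9). The 260 had a median CpG ratio of 0.796, like the 0.801 of the narrower peaks centred in islands, with a median score of 245 and a median nearest gene length of 11192 bp. The 72 others had a median ratio of 0.356, a width of 2659 bp, a score of 346 and a gene length of 5453.5 bp, and they still held a median of 820 bp of island. No island at all was found in 7 broad peaks (2.11%, 0.852 to 4.30) and in 3.76% of the narrower peaks (3.11 to 4.51). The nearest genes of these 7 broad peaks were Hpn, G430095P16Rik, Ankrd2, Trex1, Cdk3-ps, Nkx6-3 and Masp2. Hpn encodes a serine protease of the liver, Trex1 a DNA exonuclease and Masp2 a protease of the complement system.

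Genes at broad peaks were shorter than those at all narrower peaks, by the median, and coding sequence took up more of a broad peak. The 332 broad peaks had 332 different nearest genes. The median length of the nearest gene was 9538.5 bp (7644 to 12566) for broad peaks, 24936.5 bp (22707 to 27198) for narrower peaks and 25876 bp (19758 to 33453) for near-broad peaks. Peaks under 1000 bp had nearest genes as short as the broad ones, with a median of 9160 bp, and among peaks with the midpoint outside islands the order was turned round, with 5453.5 bp for broad and 3319 bp for narrower peaks. Protein-coding exon sequence took up a median of 17.0% of a broad peak (13.2 to 21.5) and 7.61% of a narrower one (6.95 to 8.48). This share was measured over the selected interval, and the broad peaks reached further both downstream and upstream. How far it depends on width was not tested, since no coding share was taken at a fixed distance. The nearest TSS belonged to a transcript starting over 1000 bp into the gene at 10 broad peaks (3.01%, 1.45 to 5.47) and 48 narrower ones (1.60%, 1.18 to 2.11), and without these, a choice made after the data had been seen, the median gene lengths were 9439 and 24541 bp. By width, the coding share was 7.35% in near-broad peaks, 15.0% from 2200 up to 3000 bp and 24.2% at 3000 bp or more.

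Whole genes lay inside some of the peaks. A whole protein-coding gene was held by 29 broad peaks (8.73%, 5.93 to 12.3), 99 narrower peaks (3.30%, 2.69 to 4.00) and 18 near-broad peaks (3.86%, 2.31 to 6.04), a count that width alone raises. Beside Pnmt and Tlx3 these included Mafa, an activator of insulin transcription, Myod1, the muscle determination factor, and Insl3, a hormone of Leydig cells. They also included the basic helix-loop-helix gene Bhlha9, the orphan receptor gene Gpr27, the connexin gene Gjd3 and the linker histone gene H1fx, and of these Mafa, Gpr27, Gjd3 and H1fx are named outside the rule. Other whole genes were predicted ones, among them Gm4782 and Gm8038, with 85.3% and 94.1% repeated sequence, and Gm11175, with 4.24%. Among peaks with under 10% repeated sequence, a whole protein-coding gene was held by 6.83% of the broad and 1.70% of the narrower ones. Myod1 is 2619 bp long, and its peak of 3067 bp had a score of 167.21 and a CpG ratio of 0.453. Mafa is 1080 bp long, and its peak of 3080 bp had a score of 190.49 and a ratio of 0.867. Nearest genes without introns were found at 56 broad peaks (16.9%) and 13.4% of the narrower ones (12.2 to 14.7).

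The nearest gene was protein-coding at 284 broad peaks (85.5%, 81.3 to 89.1) and at 86.5% of the narrower peaks (85.2 to 87.7). These 284 were 1.27% of the 22367 protein-coding genes of the annotation. Each of 14 lists of genes was set against 9.95%, the share of all peaks that were broad. That share counts peaks at genes of every type, whereas the lists count distinct genes. A listed gene was taken as broad if any of its peaks was. In all, 79 distinct listed genes were nearest to a broad peak. The lists were drawn up with earlier results of these data known, and the shares below describe them without a test.

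Among 194 homeobox genes, 24 were nearest to a peak and 7 of these to a broad one (29.2%, 12.6 to 51.1). They were Tlx3 (5031 bp), Irx5 (3037 bp), Pou3f1 (2433 bp), Nkx6-2 (2354 bp), Nkx6-3 (2286 bp), Satb1 (2213 bp) and Pitx3 (2211 bp). Pou3f1 acts in myelinating Schwann cells, Pitx3 in dopaminergic neurons and the lens, and Satb1 organises chromatin in lymphocytes. The TSS of a further one, Zeb1, lay inside the broad peak of Gm10125. The peaks at Tlx3, Pou3f1 and Nkx6-2 were almost wholly island, with 4717, 2421 and 2342 bp, whereas the one at Nkx6-3 held none.

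Of 102 basic helix-loop-helix genes, 21 were nearest to a peak and 7 to a broad one (33.3%, 14.6 to 57.0). The widest of them were Twist2, a factor of dermis and mesenchyme (3094 bp, score 694.48), and Myod1. The others were Bhlha9 (2792 bp), Usf2 (2653 bp), Bhlhe23 (2541 bp), Ascl2, a trophoblast factor from an imprinted region (2465 bp), and Hes5, an effector of Notch (2328 bp). The TSS of Scx lay within the widest peak. Sox and Forkhead genes had 12 peaks, 3 of them broad (25%, 5.49 to 57.2), all at Sox genes. These were Sox10, of neural crest and its glia (4222 bp, score 411.40), Sox13 (2311 bp) and Sox18, of endothelium (2244 bp, score 490.41). Of 54 zinc-finger genes with a peak, 13 had a broad one (24.1%, 13.5 to 37.6). The widest were Zfpm1, a cofactor of GATA factors in blood cells (3628 bp), Patz1 (3386 bp), Zbtb42 (3358 bp), Insm1, of neuroendocrine cells (3210 bp), and Klf13 (3133 bp, score 646.79). The rest were Zic5, Zbtb1, Zbtb4, Zfp664, Ctcfl, Zbtb46, Zfp651 and Zfpm2, of 2274 to 2776 bp, and the TSS of Zbtb25 lay in the peak of Zbtb1 and that of Ikzf1 in the peak of Gm11999.

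Signalling genes of the Wnt, Fgf, Tgf-beta, Hedgehog and Notch pathways had the most broad peaks of any list, 17 of 52 with a peak (32.7%, 20.3 to 47.1). Ligands were Wnt9a (4437 bp, score 344.25), Wnt7a (2848 bp, 104.24), Fgf3 (2460 bp, 340.22), Fgf18 (2354 bp, 274.06), the Notch ligand Dll1 (3070 bp, 191.63) and Gdf15 (2759 bp, 130.67). Receptors were the Frizzled genes Fzd8 (3261 bp, 236.50) and Fzd4 (2321 bp, 118.96), the activin receptor Acvr2b (2400 bp, 155.72) and Gas1, a co-receptor of Hedgehog (2544 bp, 692.03). Extracellular antagonists were Chrd, which binds BMPs (2269 bp, 109.70), Fstl3, which binds activin (2324 bp, 303.94), and Sfrp2, which binds Wnts (2213 bp, 138.00). Znrf3, a ligase that removes Frizzled receptors, Rfng, a glycosyltransferase that modifies Notch, Pmepa1 and the Notch target Hes5 completed the list, and the TSS of Inha lay inside the peak of Obsl1. Of the 17 peaks 11 scored below the median of the broad peaks, and those of Gas1 and Znrf3 (413.19) were the highest. Gdf15 and Fstl3 differed from the others in CpG ratio, with 0.186 and 0.343 against 0.649 to 1.01 at the other 15.

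Receptors, channels and synaptic proteins of neurons had 13 broad peaks of 78 (16.7%, 9.18 to 26.8), an interval that holds 9.95%. The intervals of the Sox and Forkhead, axon guidance, major histocompatibility, imprinted, meiosis and germline, ribosomal protein and clustered histone lists held it as well. Nefm, a neurofilament subunit rather than a receptor, channel or synaptic protein, had the highest score. Arc, an early-response gene of synapses, had the widest peak (3740 bp, score 165.48, CpG ratio 0.236). Others were Cnih2, an AMPA receptor auxiliary subunit (2952 bp), Slc6a4, the serotonin transporter (2915 bp), Shank3, a postsynaptic scaffold (2743 bp), Adra2c, an adrenergic receptor (2729 bp), and the potassium channel genes Kcnc4 (2604 bp) and Kcnf1 (2279 bp). C1ql1, Elfn2, Galr1 and Grin2c had peaks of 2239 to 2488 bp, and Unc13d (3376 bp), which is known for granule release in cytotoxic lymphocytes rather than in neurons, was also of this list. Axon guidance genes had 4 of 17, Ephb2 (3402 bp), Efnb2 (2805 bp), Plxna1 (2507 bp, score 828.27) and Plxnc1 (2463 bp), or 23.5% (6.81 to 49.9).

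The highest shares were found in small lists. Immediate-early and stress genes had 8 broad peaks of 17 (47.1%, 22.98 to 72.2), at Arc, Dusp1, a MAP kinase phosphatase (2384 bp), the heat shock genes Hspa1a (2582 bp) and Hspa1b (2395 bp), Irf1 (2482 bp), Pim1 (2497 bp), Rela, a subunit of NF-kappaB (2249 bp), and Socs1, an inhibitor of cytokine signalling (2446 bp), and the TSS of Jund lay in the peak of Gm11175. Muscle and cytoskeletal structure genes had 5 of 10 (50.0%, 18.7 to 81.3), among them Obsl1 (2406 bp), Ankrd2 (2977 bp), Plec (2269 bp) and the muscle intermediate filament gene Des (2201 bp), and the TSS of Cryab lay in the peak of Hspb2. The list of major histocompatibility genes had 3 of 8 (37.5%, 8.52 to 75.5), at H2-Q6, H2-Q8 and H60b, although H60b is not a gene of the major complex. Imprinted genes had 2 of 8 (25%, 3.19 to 65.1), at Ascl2 and Gnas, where the TSS of Nespas was also covered. Of 24 meiosis and germline genes with a peak, 1 had a broad one, Ctcfl (2450 bp, 4.17%, 0.105 to 21.1), and this interval holds 9.95%. None of 5 ribosomal protein genes and 1 clustered histone gene with a peak had a broad one, counts too low to set against 9.95%.

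**Figure D5:**
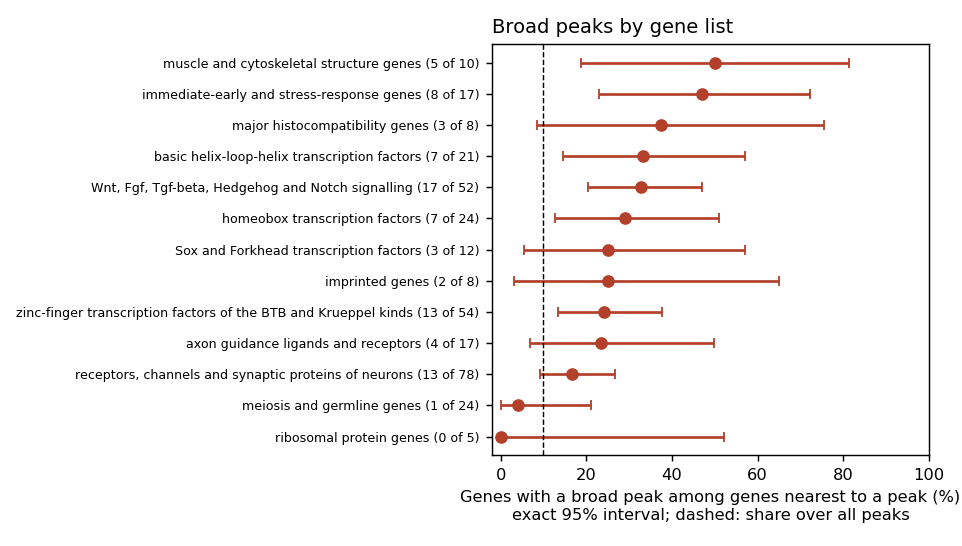
Share of genes nearest to any V5-Dppa2 peak whose peak was broad (points, % with exact 95% intervals) for the 13 lists with at least 5 such genes, with the broad and total counts in parentheses and the share over all peaks, 9.95%, as a dashed line. The highest points are those of muscle and immediate-early genes, and the lowest those of meiosis and ribosomal protein genes. The points count genes and the line counts peaks. Because the lists were drawn up with earlier results known, where the intervals lie is a description and no test.

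Some broad peaks stood in sequence that occurs more than once in the genome, where a read can be placed at either copy. At least 10% of the 36-base words were repeated in 39 broad peaks (11.7%, 8.49 to 15.7) and in 15.7% of the narrower peaks (14.4 to 17.1). At least 50% were repeated in 30 broad peaks (9.04%, 6.18 to 12.6) and in 7.26% of the narrower ones (6.35 to 8.24), intervals that overlap. The heat shock genes Hspa1a and Hspa1b, near-identical neighbours, had 80.9% and 80.6% repeated words, and H2-Q6 and H2-Q8 had 68.9% and 68.3%. Fcgr3, with the third highest score of the broad peaks, had 86.2%, Gm10807 73.5%, Gm12623 72.5% and Disc1 100%. Each such peak may therefore hold reads of its copies, and its width and score are uncertain to that degree.

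Broad peaks were unevenly spread over the chromosomes. On chromosome 8, 49 of 251 peaks were broad (19.5%, 14.8 to 25.0), and on chromosome 11, 54 of 348 (15.5%, 11.9 to 19.8). These were the chromosomes with the highest shares, followed by chromosome 12 with 22 of 159 (13.8%, 8.88 to 20.2). Chromosomes 8 and 11 together held 31.02% of the broad peaks (26.1 to 36.3), with 17.2% of their peaks broad (14.3 to 20.5) against 8.37% on the other chromosomes (7.36 to 9.47). As they were pooled for their high shares, this contrast follows in part from that choice. Among chromosomes with more than 1 peak, the lowest shares were 1 of 44 on chromosome X and 5 of 131 on chromosome 3 (3.82%). Without chromosomes 8 and 11, broad and narrower peaks had a median CpG ratio of 0.748 and 0.781, a coding share of 19.1% and 7.36%, and a nearest gene of 9258 and 27323 bp.

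Other peaks lay within 100 kb of broad peaks more often than of narrower ones, but not clearly so within 10 kb. The next peak of the list lay within 100 kb of 175 broad peaks (52.7%, 47.2 to 58.2), of 40.4% of the narrower peaks (38.7 to 42.2) and of 39.3% of the near-broad ones (34.8 to 43.9). Within 10 kb the shares were 7.23% of the broad (4.69 to 10.6) and 6.09% of the narrower peaks (5.26 to 7.01). In 29 places 2 neighbouring broad peaks lay within 100 kb of each other, involving 51 broad peaks, with 11 of these pairs on chromosome 8 and 5 on chromosome 11. The closest were Gm4782 and Gm8038, 8354 bp apart and 85.3% and 94.1% repeated, and Insl3 and B3gnt3, 9090 bp apart. Hspa1b and Hspa1a were separated by 10527 bp, Samd1 and Mir1199 by 10913 bp, and H2-Q8 and H2-Q6 by 27877 bp. Fgf18 and Tlx3 lay 50903 bp apart on chromosome 11, and on chromosome 8 the peaks of Gdf15, Gm11175, Rab3a, Mast3 and Slc5a5 followed each other with gaps of 39445 to 91617 bp.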

How the data were processed

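The deposited list gives each peak of the V5-Dppa2 ChIP on mm9 with a score of the authors, in which −log10 of the p-value from MACS is multiplied by 10. Per the methods and the submitters' processing notes, low-complexity reads were removed, reads were aligned with Bowtie 0.12.7 to mm9 keeping the best alignment, duplicates were removed (Picard 1.81) and peaks were called with MACS 1.4.2 on 1 library. A fixed shift size was set for the calling, and only peaks with a minimum number of aligned reads were kept. The lowest deposited score was 100.01, and most peaks of the list (96.4%) held an annotated TSS, so few peaks away from TSSs were analysed here. No reads, summits or read counts were used, so the midpoint stood for the peak centre.

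Width was the end minus the start of the interval. TSSs of all transcripts, coding sequence and genes were taken from GENCODE M1 on mm9, the build of the list. CpG content and repeated 36-base words, counted on both strands over the whole genome, were computed from the mm9 sequence with Python 3.11.15, pandas 2.3.3, numba 0.67.0 and pysam 0.24.0. Shares have exact Clopper-Pearson 95% intervals (scipy 1.17.1), and medians have 95% intervals from binomial order statistics. Sequence from chromosome 18 was not considered for display, and a few items that the rules would name or show are not reported here. The functions were tested on simulated data. The members and gene lists were chosen with earlier results of these data known.

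The genes named were those nearest to, or starting in, the 20 widest peaks, the 5 highest-scoring broad peaks, the peaks at the threshold, neighbouring broad peaks within 100 kb, and all listed genes at broad peaks. Genes of broad peaks without an island or a TSS, and of those holding whole genes, were added after their values had been seen. Alternatives were widths of 2000 and 3000 bp, scores of at least 200, exclusion of repeated sequence, merging of overlapping intervals, other windows, stricter islands, and other ways to count TSSs and genes.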

Additional observations from a re-analysis of the deposited data

How the results depend on the processing

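Of 58 alternative settings over 10 results, 41 left the value within its interval, or within 1.5 times for counts. The number of broad peaks was 527 at 2000 bp or more, 70 at 3000 bp or more and 219 with scores of at least 200. At 3000 bp or more, the share with several TSS clusters within 1000 bp of the midpoint was 25.7% in place of 35.5%, the median CpG ratio 0.559, the island length 1849.5 bp, the median score 345.95, the share with a whole gene 21.4% in place of 16.6%, the share with repeated sequence 7.14%, and the number of list entries at broad peaks 18 in place of 83. With scores of at least 200, the median score was 367.9 and the number of list entries 45. The share covering the TSSs of 2 or more genes was 10.8% for protein-coding TSSs, 9.04% within 500 bp and 17.8% within 1000 bp. The CpG ratio was 0.658 in 2000 bp and 0.621 over the whole peak. Fewer or more peaks follow from the thresholds by construction, and for the other values the cause was not tested. No intervals overlapped, so merging changed no value. No paired analysis was possible because there was 1 library, and for the same reason no replicate could be left out. Peaks below the authors' limits on score and aligned reads are unknown, as are the depth and the position of summits. The width of a peak therefore cannot be separated from several adjoining ones.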

Other observations

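The 48 broad peaks whose nearest gene was not protein-coding included 18 at pseudogenes, 13 at processed transcripts, 9 at lincRNAs and 7 at miRNA genes. The miRNA share was 2.11% of the broad peaks (0.852 to 4.30) and 0.999% of the narrower ones (0.675 to 1.42), intervals that overlap. The named miRNA genes were AC155932.1 (5489 bp, score 802.99), Mir671 (3209 bp, score 377.28), Mir702, in a peak that also covered the TSS of Plod3 (2958 bp, 178.24), and Mir1199, in a peak shared with 2210011C24Rik (2514 bp, 782.69). Several lincRNA peaks also covered the TSS of a protein-coding gene, with Adamts2 in that of Gm12198, Mfhas1 in that of Gm16793 and Ikzf1 in that of Gm11999. These genes were chosen after their values had been seen.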
